A study of Mus musculus with 6 samples.

Results

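The BCL2 family genes described here are 10 mouse genes fixed by name: the anti-apoptotic Bcl2, Bcl2l1 and Mcl1, the effectors Bax and Bak1, and the BH3-only genes Bad, Bid, Bcl2l11, Bbc3 and Pmaip1. They were taken as every probe set that the given annotation of either chip assigns to 1 of these genes alone. This gave 29 probe sets of 9 genes, of 18193 genes measured in all. No probe set is given to Bax alone there, and the expression of Bax was not analysed here, so Bak1 is the only effector with signal values.

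RNA came from myospheres, which are floating clusters that cells taken from muscle form in culture. Per the labels, the starting cells were taken from the hind-leg muscle of male Balb/c mice, enriched for the Sca1 antigen by sorting and used at passage 1 after 4 days of culture. Their medium was Neurocult, made for neural stem cells, to which EGF, LIF, B27 and a factor written as bf6f were added. There was 1 condition and no control group, and RNA of replicates 1 to 3 was each run on both Affymetrix chips of the pair, MOE430A and MOE430B. All 6 arrays carry 1 submitter sample number and the labels name no separate cultures, so the spread between replicates may be technical.

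BCL2 proteins decide whether the outer membrane of the mitochondrion is opened, the step that releases cytochrome c and starts the intrinsic pathway of apoptosis. BAX and BAK open the membrane, the anti-apoptotic proteins hold them in check, and the BH3-only proteins relay death signals by binding the anti-apoptotic proteins or activating the effectors. The family is controlled at many levels besides mRNA, including splicing, phosphorylation and protein turnover, none of which an array of this kind reads.

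Values are MAS5 signals on a linear scale, with each array scaled by the authors to the same trimmed mean. Probe sets for chemosensory receptors and other genes of tissues far from muscle served as background, and the 95th percentile of their signals was each array's limit. For MOE430A this was 819 in replicate 1, 784 in replicate 2 and 822 in replicate 3, and for MOE430B 3237, 2929 and 2542. To be called above the limit, a probe set had to pass it in all 3 replicates, and a gene needed 1 such probe set. Signals of different probe sets are not on 1 scale, so each is read against the limit of its own array and none against another probe set. In a bulk sample, fewer cells that express a gene and less of its RNA per cell cannot be told apart. The labelled cell type was set against marker genes. Of the mesenchymal genes, 4 of 4 measured were above the limit (Pdgfra, Cd34, Col1a2 and Dcn), while Ly6a, which encodes the sort antigen, was not analysed here. Of the satellite cell and myoblast genes 0 of 5 were above on all 3 arrays: Pax7 and Myf5 were under the limit on every array, Des passed it on 1, and Myod1 and Myog on 2 of 3. Myod1 read 1074, 605 and 1062 in replicates 1, 2 and 3, and Myog 729.7, 1332 and 1468. Of 4 genes each, 1 endothelial gene (Kdr), 1 leukocyte gene (Csf1r), 1 neural gene (Nes) and 2 pericyte and smooth muscle genes (Rgs5 and Acta2) were above it. The endothelial gene Cdh5 and the leukocyte genes Cd68 and Tyrobp passed it on 2 of 3 arrays, and the leukocyte gene Ptprc on 1.

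Of the 9 measured BCL2 family genes, 4 were above the limit: Mcl1, Bcl2l1, Bcl2l11 and Bad. That is 44.4%, beside 36.2% of all measured genes, a share near the background, so the count itself is no result about the family. The median over genes of the lowest array divided by its limit, for each gene's probe set nearest to or farthest above the limit, was 0.95 for the 9 members and 0.583 for all genes. By role, 2 of 3 anti-apoptotic genes, 0 of 1 effector and 2 of 5 BH3-only genes were above it. Genes with more probe sets have more chances to pass: 22.1% of genes with 1 probe set were above the limit, 42.4% with 2, 53.4% with 3, 60.3% with 4, 70.0% with 5 and 76.9% with 6 or more. Mcl1 has 6 probe sets, Bcl2 and Bcl2l11 have 5, Bcl2l1 has 4, Bid has 3, Bak1 and Bad have 2, and Bbc3 and Pmaip1 have 1. By probe set, 10 of 24 on MOE430A were above the limit, beside 35.6% of all single-gene probe sets of that chip, and 0 of 5 on MOE430B, beside 13.5%. The 10 include all 6 sets of Mcl1, which are readings of 1 gene and not independent.

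**Figure D1:**
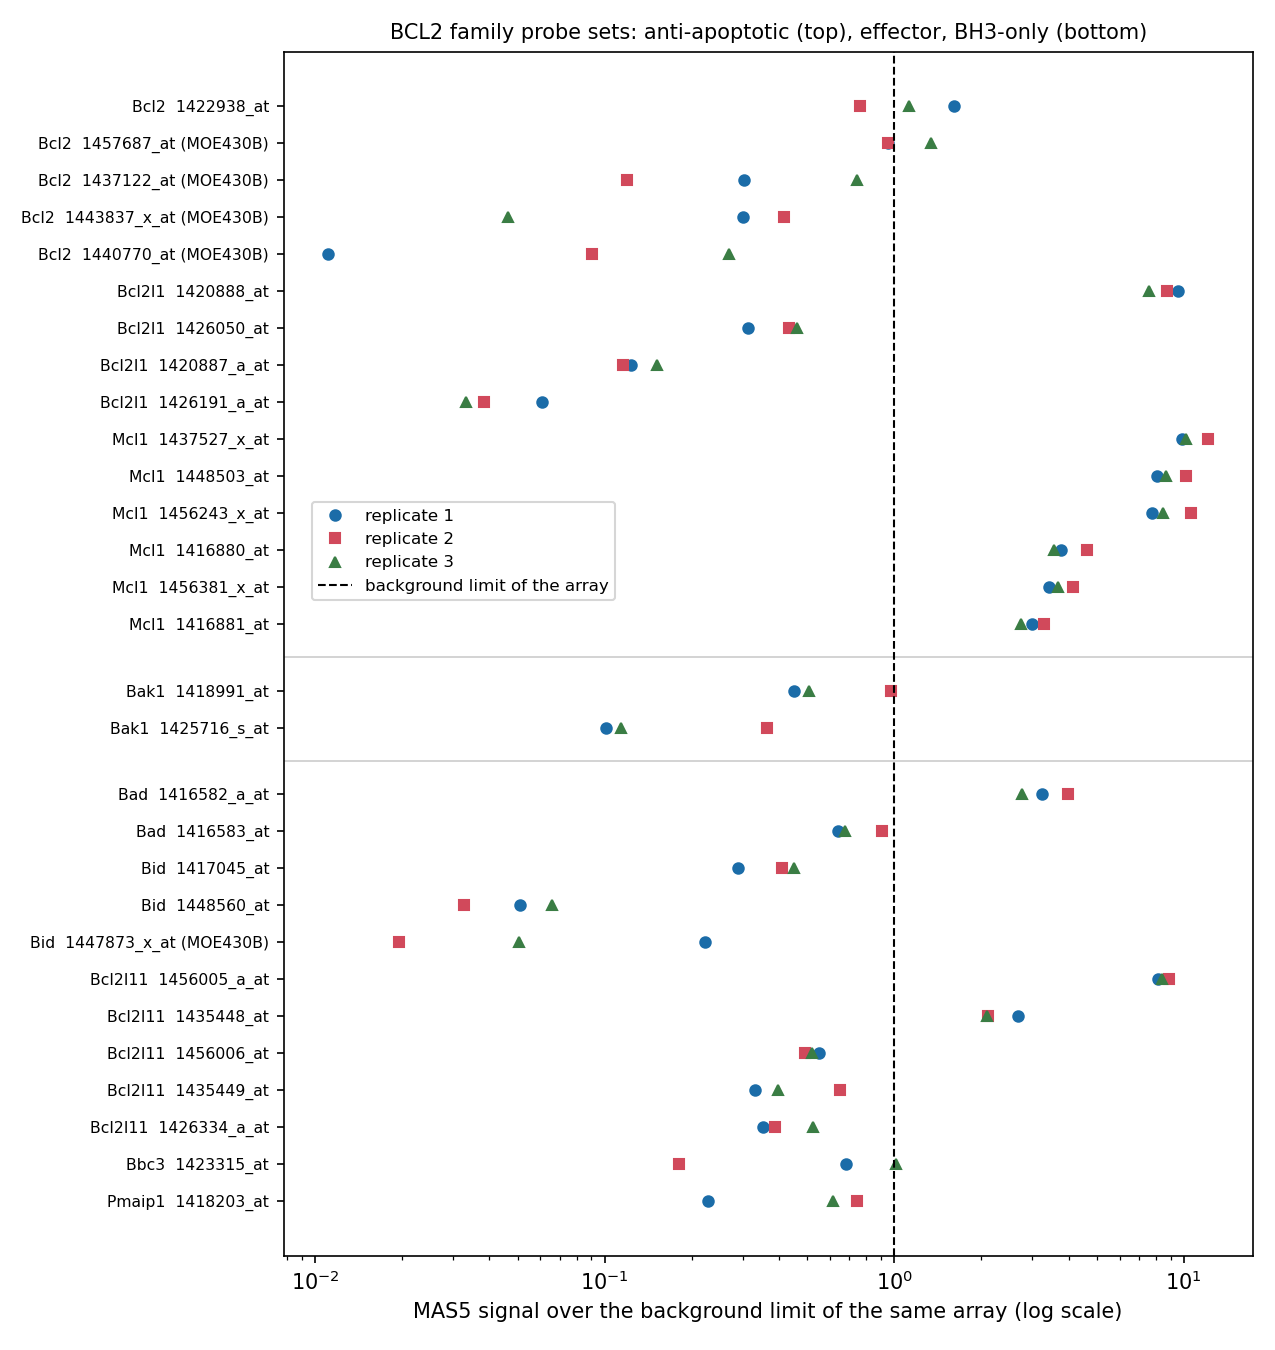
Each row is 1 probe set of a BCL2 family gene and each point 1 array, placed by its MAS5 signal over the background limit of the same array (log axis), with colour and shape for the replicate and the dashed line at the limit. All 6 Mcl1 rows lie to the right of the line, Bcl2l1 has 1 of 4 rows there, Bcl2l11 2 of 5 and Bad 1 of 2, and no row of Bak1, Bid, Bbc3 or Pmaip1 has all 3 points past it.

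Mcl1 encodes a short-lived anti-apoptotic protein that binds BAK and several BH3-only proteins. Its probe set 1437527_x_at read 8088, 9544 and 8365 in replicates 1, 2 and 3, a mean of 8666 ± 773 (SD, n = 3). All 3 arrays were far above the limit, at 9.87, 12.2 and 10.2 times it. Probe set 1448503_at read 6595, 7988 and 7128, at 8.05 to 10.2 times the limit. Probe set 1456243_x_at read 6367, 8282 and 6940.5, at 7.77 to 10.6 times the limit. These probe sets gave the same picture, although those ending in _x_at share probe sequences with other transcripts. The remaining Mcl1 sets, 1416880_at at 3205 ± 368, 1456381_x_at at 3029 ± 221 and 1416881_at at 2434 ± 165 (SD, n = 3), were above the limit on every array as well. Their lowest arrays reached 3.55, 3.44 and 2.75 times the limit. Of the 72 genes with 6 probe sets on MOE430A, 4 had all 6 above the limit, Mcl1 among them. The 250 bases before the Mcl1 start, from RefSeq, are shown because Mcl1 is the member with every probe set above the limit, and the capitals mark its 1 GC box (GGGCGG on either strand), which begins 20 bases before the start:
Mcl1, GRCm38.p6, chr3:95658471-95658720, plus strand: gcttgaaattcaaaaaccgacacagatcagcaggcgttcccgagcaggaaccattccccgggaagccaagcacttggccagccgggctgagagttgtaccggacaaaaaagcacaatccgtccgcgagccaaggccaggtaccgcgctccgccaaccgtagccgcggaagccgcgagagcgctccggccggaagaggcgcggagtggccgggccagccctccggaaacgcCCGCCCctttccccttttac
The 9 members looked up include Bax but not Pmaip1, so they are not the same 9 as the measured genes. A GC box was present in 10 of their 15 windows, beside 32.7% of all 32851 RefSeq windows of this length. It was in 7 of the 9 members, beside 35.4% of all genes with a window. The members' windows were 47.6% to 81.6% G or C, beside a median of 52.4% over all windows. The part of base composition in these counts was not tested. The medium held LIF, whose receptor signals through STAT3, and the letters TTCNNNGAA of a STAT element were in 0 of the 15 windows of these 9 members, beside 7.02% of all windows. This says only that these letters are not in these windows on either strand.

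Bcl2l1 encodes BCL-XL, an anti-apoptotic protein, and by another splice form the pro-apoptotic BCL-XS. Its probe set 1420888_at read 7829, 6881 and 6245 in replicates 1, 2 and 3, a mean of 6985 ± 797 (SD, n = 3). All 3 arrays exceeded the limit, by 9.56, 8.78 and 7.60 times. The other 3 probe sets stayed under it on every array: 1426050_at read 257, 339 and 378, 1420887_a_at 101, 90.4 and 124, and 1426191_a_at 49.7, 30.1 and 27.4. Bcl2l1 was thus above the limit by 1 of 4 probe sets, and the data do not tell which splice form gave the signal. Of all genes with 4 probe sets that were above the limit, 47.4% were so by a single set. The annotation does not place probe sets along the transcript. Control sets at the 3' end read on average 13.8 times those at the 5' end for Gapdh on MOE430A and 10.4 times for actin. On MOE430B these values were 15.4 and 11.1. The part of such a difference in the low Bcl2l1 sets, or in other members' sets under the limit, was not tested.

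Bcl2, the founding member of the family and an anti-apoptotic protein of mitochondria and endoplasmic reticulum, lay at the limit. Its MOE430A probe set 1422938_at read 1313, 599.5 and 923 in replicates 1, 2 and 3, which is 1.60, 0.765 and 1.12 times the limit. Replicates 1 and 3 were above it and replicate 2 below. On MOE430B, 1457687_at read 3091, 2783 and 3402, which is 0.955, 0.950 and 1.34 times the higher limit of that chip. Here only replicate 3 was above it. The other 3 MOE430B sets were under the limit on every array, and their readings differed widely between arrays: 984, 351 and 1897 for 1437122_at, 975, 1221 and 118 for 1443837_x_at, and 35.8, 265 and 685 for 1440770_at. Bcl2 therefore missed the call through replicate 2 on MOE430A and through replicates 1 and 2 on MOE430B. It passed when replicate 2 was left out, with a lowest array at 1.12 times the limit.

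Bcl2 was the only member that passed the filter of the test between replicates. The test took the 619 genes with a probe set whose mean exceeded the mean limit on both chips, with the disagreement between chips as error, and 7 of them (1.13%) passed an adjusted p under 0.05, against 0 without replicate 1, 0 without replicate 2 and 5 without replicate 3. These p-values measure only the spread between these arrays. For Bcl2, replicate 1 was highest and replicate 2 lowest, 0.64 ± 0.35 (SE) apart on the log2 scale, which did not pass (limma moderated F-test, adjusted p = 0.74 over all genes tested, n = 3 replicates). The adjusted p ranged from 0.579 to 0.965 over the alternatives in which Bcl2 was tested. With no filter, replicate 3 was highest for Bcl2 and replicate 2 lowest, 0.40 ± 0.55 (SE) apart, and without replicate 2, replicates 1 and 3 were 0.19 ± 0.31 (SE) apart. With no filter Bid entered as well, with replicate 1 highest and replicate 2 lowest, 1.90 ± 1.02 (SE) apart on the log2 scale (limma moderated F-test, adjusted p = 0.942), from signals under the limit on every array. On MOE430B, replicate 1 was on 1 chip lot and replicates 2 and 3 on another, while the MOE430A arrays shared a lot. Replicate 1 was highest for 56.2% of all MOE430B probe sets above the limit, beside 34.35% on MOE430A. On MOE430B the limit was highest in replicate 1, at 3237 beside 2929 and 2542. That share is thus drawn from sets picked in part for being high in replicate 1. The median signal over all MOE430B probe sets was 861 in replicate 1, 970 in replicate 2 and 943 in replicate 3. The part of the lot in the Bcl2 values was not tested.

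**Figure D2:**
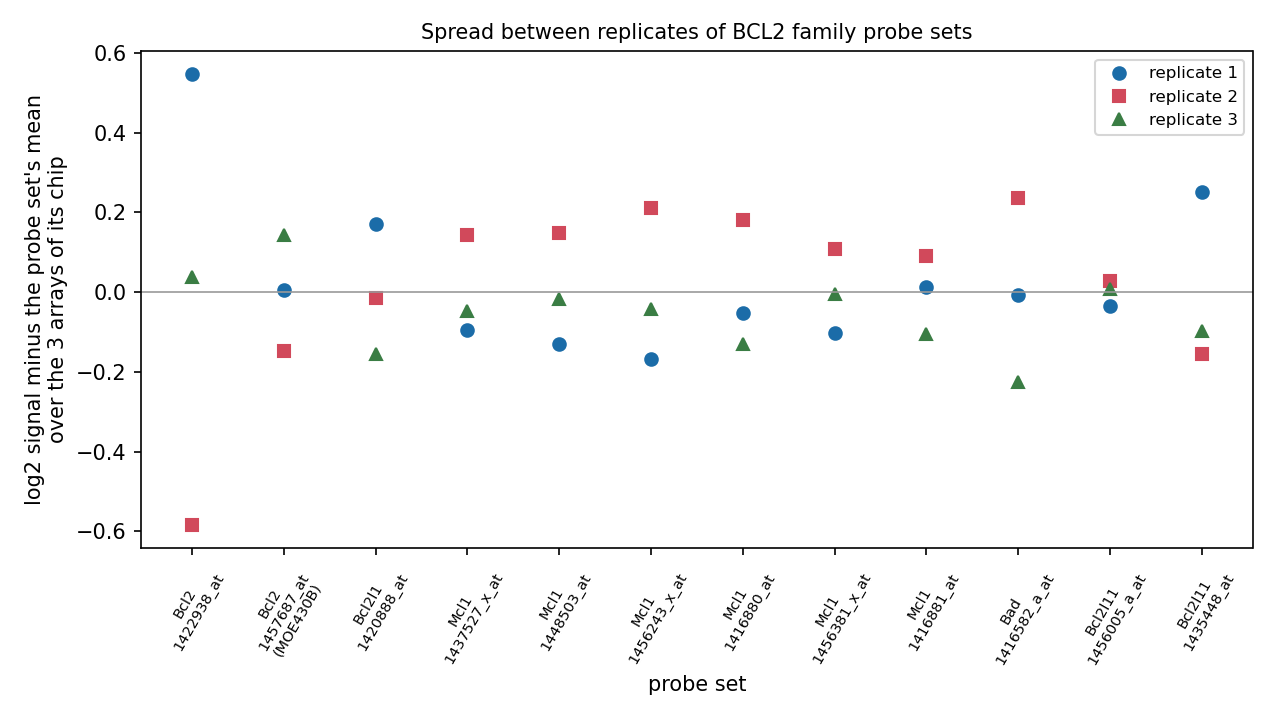
Each column is a BCL2 family probe set whose mean ratio to the limit exceeded 1, and each point 1 replicate, plotted as its log2 signal minus the probe set's mean over the 3 arrays of its chip. Replicate 2 is the top point in all 6 Mcl1 columns and in Bad, the replicates of Bcl2l11 1456005_a_at almost coincide, and Bcl2 1422938_at has the widest spread, 1.13 on the log2 scale.

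Bak1 encodes BAK, which sits in the outer mitochondrial membrane and forms its pores once activated. Probe set 1418991_at read 368, 762 and 417 in replicates 1, 2 and 3, which is 0.449, 0.972 and 0.508 times the limit. Replicate 2 came close to the limit and the other arrays lay well under it. Probe set 1425716_s_at read 82.9, 286 and 93.5, again with replicate 2 highest and all arrays under the limit. Signal under the limit does not show that the RNA was absent. Bak1 stayed under it in all 10 alternatives, with a lowest array at 0.286 to 0.618 of the limit.

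Among the BH3-only genes, Bcl2l11 and Bad were above the limit. Bcl2l11 encodes BIM, which binds all the main anti-apoptotic proteins and is restrained by growth factor signalling. Its probe set 1456005_a_at read 6678, 6974 and 6888, a mean of 6847 ± 152 (SD, n = 3), at 8.15 to 8.89 times the limit. These arrays differed little: the coefficient of variation was 2.22%, beside a median of 13.0% over all single-gene MOE430A probe sets above the limit. Probe set 1435448_at read 2185, 1650 and 1717, at 2.09 to 2.67 times the limit. The other 3 sets were under it on every array, at 421 ± 34.0 for 1456006_at, 369 ± 125 for 1435449_at and 341 ± 78.2 for 1426334_a_at (SD, n = 3). Bcl2l11 was thus above the limit by 2 of 5 probe sets. Of these, 1456005_a_at is an _a_at set, whose probes match several transcripts of 1 gene.

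Bad encodes a BH3-only protein that is held inactive when survival kinases such as AKT phosphorylate it. Probe set 1416582_a_at read 2643, 3129 and 2273, a mean of 2682 ± 429 (SD, n = 3), at 3.23, 3.99 and 2.77 times the limit. Probe set 1416583_at read 524, 714 and 557, at 0.64, 0.911 and 0.678 of the limit. Replicate 2 was the highest of the 3 arrays for both sets. Probe set 1416582_a_at is an _a_at set, a type counted here among probe sets of shared sequence although it matches 1 gene. Without probe sets of shared sequence Bad fell under the limit, with a lowest array at 0.64 of it.

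Bid, Bbc3 and Pmaip1 were not above the limit. Bid links death receptors to mitochondria once caspase-8 cleaves its protein. Its MOE430A sets read 236, 320.3 and 371 for 1417045_at and 41.7, 25.6 and 53.9 for 1448560_at, at most 0.452 of the limit. Its MOE430B set 1447873_x_at read 720.5, 56.9 and 129, at most 0.223 of that chip's limit. Bid was therefore low by all 3 of its probe sets.

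Bbc3 encodes PUMA and Pmaip1 encodes NOXA, BH3-only proteins that p53 can induce, NOXA being known above all as a partner of MCL1. Bbc3 probe set 1423315_at read 559, 142 and 832, which is 0.682, 0.18 and 1.01 times the limit. Only replicate 3 crossed it, and the coefficient of variation was 68.1%. Pmaip1 probe set 1418203_at read 187, 581 and 506, at 0.228, 0.742 and 0.616 of the limit. Both genes rest on 1 probe set, a class of gene in which 22.1% were above the limit.

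FOXO factors, which survival signalling through AKT keeps out of the nucleus, are known inducers of Bcl2l11 and Bbc3. Sequences of these members are shown because they are the only members looked up whose windows of 250 bases before a RefSeq start hold the FOXO element TGTTTAC on either strand, marked in capitals. For Bbc3 only the stretch around the match is given:
Bcl2l11, GRCm38.p6, chr2:128125788-128126037, plus strand: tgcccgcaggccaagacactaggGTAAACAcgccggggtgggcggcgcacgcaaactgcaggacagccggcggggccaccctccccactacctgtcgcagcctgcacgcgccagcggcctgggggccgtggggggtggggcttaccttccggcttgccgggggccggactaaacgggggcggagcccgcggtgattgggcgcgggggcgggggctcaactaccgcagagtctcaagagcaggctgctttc
Bbc3, GRCm38.p6, chr7:16310084-16310110, plus strand: ctggcgggttTGTTTACaaacaatggg
The match begins 227 bases before 1 of 2 Bcl2l11 starts and 167 bases before 1 of 3 Bbc3 starts. The element was in 2 of 9 members looked up, beside 3.54% of all genes with a window. Of these members Bcl2l11 was above the limit and Bbc3 was not. A match is a description of letters, not a binding site. Pmaip1 was not looked up.

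Foxo3 itself was above the limit, its probe set highest over the limit reading 2146, 2448 and 3085, whereas Foxo1 read 799, 789.6 and 1099, just under the limit on replicate 1. Of 11 measured upstream regulators of BH3-only genes, 7 were above the limit, beside 36.2% of all measured genes. These were Foxo3, Mdm2, Jun, E2f1, Akt1, Gsk3b and Map3k5. Mdm2, which restrains p53 and is itself induced by it, read 2044, 2445 and 1729. Akt1, the kinase that phosphorylates BAD and FOXO factors, read 2680.4, 3130.2 and 2960 by 1 of its 4 probe sets. Ddit3, an inducer of Bcl2l11 and other death genes under endoplasmic reticulum stress, read 1136, 1438 and 685 and missed the limit on replicate 3. Trp63 and Trp73, relatives of p53, were under the limit at 204 ± 9.52 and 353 ± 87.3 (SD, n = 3), and Trp53 was not analysed here.

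Of the other genes of the BCL2 family, 1 of 10 measured was above the limit, beside 36.2% of all measured genes. Without replicate 1 or without replicate 2, 2 of 10 were above it, beside 38.6% of all measured genes. The gene above it in the main setting was Bcl2l2, which encodes the anti-apoptotic BCL-W, at 1102, 1133 and 1400, by 1 of 4 probe sets. Those under it were Bcl2l10, Bok, Bik, Bmf, Hrk, Bcl2l12, Bcl2l13, Bcl2l14 and Bcl2l15. Hrk, a BH3-only gene best known from neurons, read 682, 1265 and 1537, above the limit on 2 of 3 arrays. Bcl2l13 read 869.7, 673 and 880.3, also above it on 2 of 3. Bmf, a BH3-only gene, stayed under the MOE430B limit at 2244 ± 350.1 (SD, n = 3), and Bik, another, read 159 ± 18.0 on MOE430A.

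Genes for partners and upkeep of BCL2 proteins were above the limit for 11 of 14 measured, beside 36.2% of all measured genes. Ywhaz and Usp9x have 7 probe sets and Ywhab and Huwe1 have 6. Of genes with 6 or more, 76.9% were above the limit. Vdac2, the channel that holds BAK at the mitochondrial membrane, read 14102, 10071 and 12302, and Vdac1 and Vdac3 were above the limit too. The 14-3-3 genes Ywhaz and Ywhab, whose proteins sequester phosphorylated BAD, read 13578 ± 2132 and 37433 ± 2668 (SD, n = 3). Tpt1, which encodes a protein that binds MCL1, read 151178, 123323 and 115920. Huwe1, a ubiquitin ligase that marks MCL1 for destruction, read 3698, 2044 and 2485, above the limit by 2 of 6 probe sets. Usp9x, a deubiquitinase that stabilises MCL1, was under the limit by all 7 of its probe sets. Bag1, Becn1, Bnip3 and Tmbim6 were above it, and Fbxw7 and Fkbp8 were not.

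**Figure D3:**
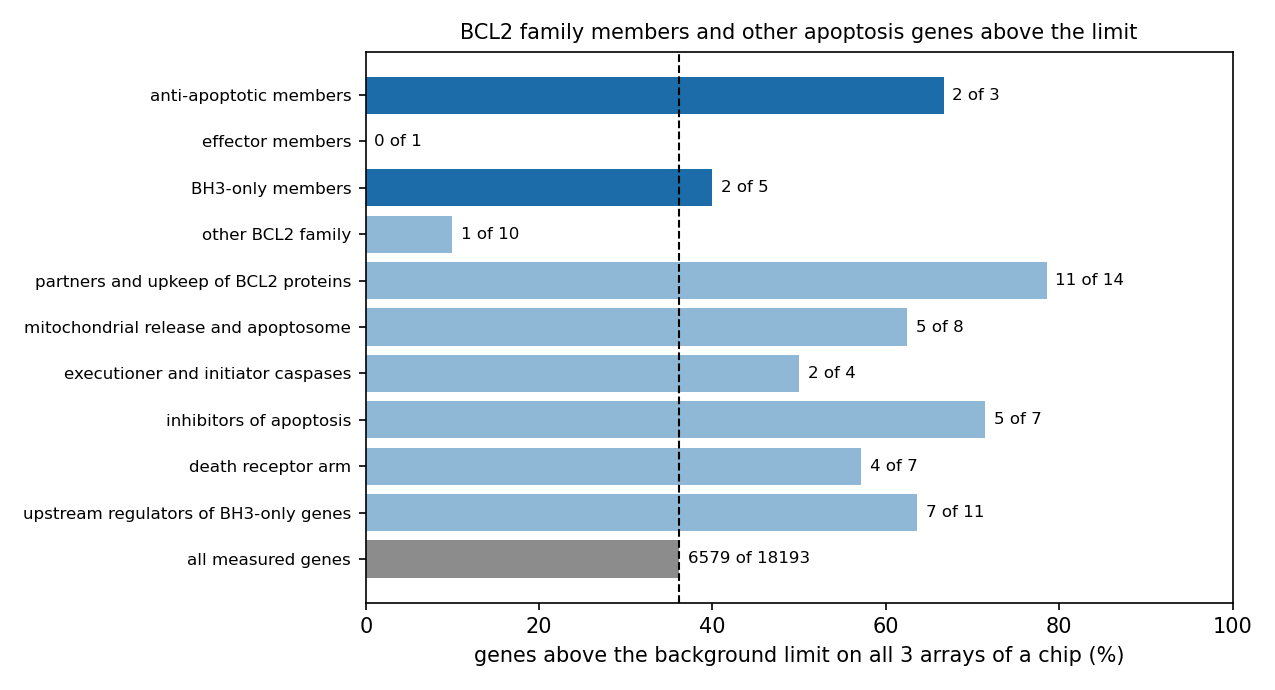
Bars give the percentage of measured genes above the background limit on all 3 arrays of a chip for the BCL2 family members by role, for 7 lists of other apoptosis genes and for all measured genes, with the counts beside them. The dashed line is the 36.2% of all measured genes: the other BCL2 family genes lie under it at 1 of 10, and the partners list is the longest bar at 11 of 14.

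Downstream of the mitochondrion, 5 of 8 genes for released factors and the apoptosome were above the limit, beside 36.2% of all measured genes. They were Cycs, Diablo, Htra2, Aifm1 and Opa1. Cycs, cytochrome c, read 17465, 24639 and 14104. Apaf1, the scaffold of the apoptosome, read 1195, 910.2 and 790.5 and missed the limit on replicate 3, and Casp9, the caspase it activates, read 975, 630.0 and 1084 and missed it on replicate 2. Endog was also under it. Of 4 measured caspase genes, Casp2 and Casp6 were above the limit and Casp8 and Casp9 were not. Casp8, which cleaves BID, read 1039, 705 and 737.

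Inhibitors of apoptosis were above the limit for 5 of 7 genes: Xiap, Birc3, Birc5, Birc6 and Cflar. Xiap, which blocks caspases directly, read 1513, 1675 and 1661 by 1 of 7 probe sets, and Birc5, survivin, also a gene of mitosis, read 1678, 1538 and 1923. In the death receptor arm 4 of 7 were above it, namely Tnfrsf1a, Fadd, Tradd and Cflar. The TNF receptor Tnfrsf1a read 11403, 10246 and 10302, whereas Fas and the TRAIL receptor Tnfrsf10b were far under the limit at 69.5 ± 20.8 and 121 ± 53.6 (SD, n = 3). Over all 7 lists, 34 of 58 measured genes were above the limit (58.6%), beside 36.2% of all measured genes. The lists hold many genes with several probe sets, so this share too is a description.

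Between replicates, the 10 member probe sets above the limit varied by coefficients of 2.22% to 16.0%, with a median of 10.6%, beside a median of 13.0% over all single-gene MOE430A probe sets above the limit. The 19 under the limit varied by 8.08% to 120.5%, with a median of 35.1%. Replicate 2 was highest for 8 of the 10 sets above the limit, namely all 6 of Mcl1, Bad 1416582_a_at and Bcl2l11 1456005_a_at, while it was highest for 32.0% of all MOE430A probe sets above the limit. The 6 Mcl1 sets read the same RNA on the same 3 arrays and count as 1 gene. The Mcl1 range between replicates was 0.20 to 0.38 on the log2 scale. On MOE430A, replicate 2 was also the lowest array for 39.4% of all probe sets above the limit. Replicate 2 had the highest reading of 9 of 9 hybridisation controls on MOE430A, by a median of 1.54 times the mean of the other arrays. On MOE430B it was highest for 9 of 9 as well, by 1.48 times. The part of these controls in the order of the replicates was not tested. No member on MOE430A alone can be tested between replicates, since each replicate has 1 array there.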

How the data were processed

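The authors deposited a linear signal intensity for each probe set, made with MAS5 per the submitters' processing notes. Its version is not given in the sources used here. The deposited tables have a trimmed mean of 1500 to 1501 on each of the 6 arrays (2% cut at both ends). Probe sets were named from the given platform annotation (20393 of 22690 on MOE430A and 14674 of 22575 on MOE430B with 1 gene, updated through Entrez numbers in the RefSeq table of GRCm38.p6, which held 20364 and 14499), and the remaining probe sets were left out. The background limit used 151 reference probe sets on MOE430A and 44 on MOE430B (genes for placental prolactins, defensins, sperm nuclear proteins, testis kinases, gamma crystallins, keratin-associated proteins and receptors of taste, odorants and pheromones), of which 2.65% and 4.55% passed the call. Signals of the 6 arrays were not normalized further. Counts above the limit are descriptions without a test. Alternatives changed the limit, the probe sets, the chip, the number of arrays required, the scaling and the replicates. The replicate comparison was limma's moderated F-test (limma 3.58.1, R 4.3.3) with chip as a covariate, a variance trend on intensity and Benjamini-Hochberg adjustment. It was tested on simulated data and ran on mean log2 signals per gene and chip, computed from the deposited intensity. Having 3 arrays per chip limits the precision. The members and gene lists were chosen with earlier results of these data known. By rule all 10 members and every listed gene above the limit are named. Other listed genes were named after their values were seen. Genes of like pattern were not sought, as 3 arrays of 1 condition hold none. Python 3.11.15, numpy 2.4.6, pandas 2.3.3 and matplotlib 3.10.9 were used.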

Additional observations from a re-analysis of the deposited data

How the results depend on the processing

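The 10 alternatives for these counts changed the background limit, the probe sets, the chip, the arrays required or the replicates. Under them, 3 to 5 of the 9 members were above the limit, against 4 in the main setting. Mcl1, Bcl2l1 and Bcl2l11 were above it and Bak1, Bid, Bbc3 and Pmaip1 under it in all 10. Bad dropped out when shared-sequence probe sets, here those ending in _x_at, _s_at or _a_at, were removed, which left 1 of 5 BH3-only genes above. Bcl2 was gained with the array median as limit, with 2 of 3 arrays required and without replicate 2. All genes above ranged from 4918 (27.0%) with the 99th percentile to 9781 (53.8%) with the array median. Members above were 4 of 9 with the 99th percentile, beside 27.0% of all genes, and 5 of 9 with the array median, beside 53.8%. With 2 of 3 arrays required they were 5 of 9, beside 42.3%, and without replicate 2 they were 5 of 9, beside 38.6%. Without shared-sequence probe sets they were 3 of 9, beside 30.5%. Leaving out each replicate in turn gave 4 to 5 members. The other BCL2 family genes ranged from 0 of 10 with the 99th percentile to 5 of 10 with the array median. The caspases ranged from 1 of 4 to 4 of 4 under the same settings. Without shared-sequence probe sets, partners had 7 of 12, released factors 3 of 6 and inhibitors of apoptosis 3 of 5 above. Genes differing between replicates with limma numbered 7 of 619 (64 at an unadjusted p under 0.05). They were 4 with array median centring, 0 with quantile normalization (36 unadjusted), 0 with no intensity trend (56), 0 with no filter (92), 0 without probe sets of shared sequence (19), and 0 to 5 when each replicate was left out, where 2 replicates remain. The cause of these changes was not tested. No paired analysis was possible because the replicate number is itself the factor tested and there is 1 condition. The MOE430B limit, near 2903, restricts what that chip can show for Bcl2 and Bid.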

Other observations

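Probe sets of 1 gene often fell on both sides of the limit. Of genes with 2 probe sets on MOE430A, 19.5% had both above it, and of genes with 4, 5 and 6 the shares with all above were 8.72%, 7.19% and 5.56%. None of the 2 Bak1 sets on that chip was above, as for 46.8% of genes with 2 sets.

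The members' RefSeq windows differed in base composition. The Bcl2 window was 74.8% G or C with 36 CpG, the Bbc3 windows were 72.4% to 81.6%, and the Bcl2l1 windows were 47.6% to 53.2% with 0, 11 and 12 CpG, against a median of 52.4% and 6 CpG over all windows.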
